A study of Mus musculus with 9 samples.

Results

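The genes of the nuclear transport machinery were compared between 2 mouse models of osteosarcoma, a malignant tumor of bone. They were chosen by symbol: the protein-coding genes of the deposited table whose names begin with Nup and a number, Ipo and a number, Kpna and a number, Kpnb1, or Xpo followed by a number or t. This gave 41 genes of 55367 in the table, namely 21 nucleoporins, 14 importins and 6 exportins. A further row that matches the same pattern, Kpna2-ps, is a processed pseudogene with 0 counts in all 9 tumors and was left out. The p53-driven tumors (n = 4) have the genotype Col2.3-Cre/TrpP53fl/+, and the Myc-knockin tumors (n = 5) combine Cre and p53fl/+ with an LSL c-MycT58A allele, which Cre switches on by removing a floxed stop. Both groups thus carry Cre and 1 floxed Trp53 allele, and the knockin adds the mutant Myc. The Col2.3 fragment of the collagen type I promoter drives Cre in osteoblasts, so only cells of that lineage carry the recombined alleles, while the RNA came from whole tumors. The labels used here give neither strain nor age at collection.

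The nuclear pore is a ring of nucleoporins set into the nuclear envelope. Its scaffold consists of the Y complex and the inner ring, its channel is filled with flexible repeat-rich nucleoporins, and filaments and a basket extend to the cytoplasm and the nucleus. Importins and exportins, together called karyopherins, carry proteins and RNAs through that channel, and the small GTPase Ran gives the transport its direction. Importin alpha is an adaptor that reads the nuclear localization signal of a cargo, and importin beta (Kpnb1) carries adaptor and cargo through the pore. MYC is a transcription factor that binds the E-box, CACGTG, and is known for raising genes of growth and biosynthesis.

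The libraries were unequal. Total counts ranged from 2716322 to 17073285 per tumor, and 3 counts, taken as the floor of detection, equalled 0.114 to 2.39 CPM, the count scaled to library size with TMM normalization. A set of 12 genes in satellite repeats took 23.2% to 81.0% of all counts in 4 libraries, M351 and M9 with M408 and F187, against at most 0.0242% in the other 5. Counts on 1501 chemosensory receptor genes, used as a gauge of reads from genomic sequence, came to 0.150 to 1.23 per kilobase of exon in those 4 libraries and to at most 0.0388 in the rest. M624 and M664 stood apart in another way, with the noncoding RNA Rn7sk at 5.33 and 9.32 CPM (relative to counts outside the satellites), against at least 8858 CPM in the other 7. Many of the results below are therefore also given without M624 and M664. A value given only for all 9 tumors can differ without that pair. The part of these library differences in any result was not tested.

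Myc itself was checked against the labels. Its level was 46.2, 43.5, 67.1 and 60.4 CPM in F187, F325, F331 and F368, and 270, 520, 144, 1045 and 905 CPM in M351, M408, M9, M624 and M664. Every Myc-knockin tumor thus lay above every p53-driven tumor (log2 fold change 3.41 ± 0.59 SE, adjusted p = 0.0217, edgeR), although the call was lost with library-size scaling (adjusted p = 0.0659, edgeR) and without F325, F331 or F368, where the log2 fold change was 3.33 to 3.54 and 5 to 8 genes in all were called. Log2 fold changes are Myc-knockin over p53-driven throughout, so values above 0 mean higher in the Myc-knockin tumors.

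Of the 41 genes, 40 passed the filter on low counts, and 2 of them were called, both higher in the Myc-knockin tumors: Nup210, a membrane-spanning nucleoporin, and Nup62cl, a gene named for its likeness to the channel nucleoporin Nup62. The call required both a Benjamini-Hochberg adjusted p below 0.05, over all 15365 genes tested with edgeR's quasi-likelihood test, and more than a 1.5-fold difference. Nup62cl passed the filter only through the Myc-knockin tumors, where it was high, so only the Nup210 call is free of that selection. The 2 calls are 5% of the genes in the set, and 5.27% of all genes tested were called (2.26% higher and 3.0% lower), so the share called does not exceed the background. An unadjusted p under 0.05 was reached by 11 of 40 (27.5%), close to the 26.8% of all genes.

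The number of calls in the set depended on the settings, as did that over all genes. With upper-quartile scaling 5 of 40 were called (6.32% of all genes), with library-size scaling 1 (0.885%), with DESeq2 8 (17.4%), after subtraction of the genomic background 4 (7.86%) and with every gene of at least 1 count 2 of 41 (1.04%). Without M624 and M664 only Nup210 of 39 was called (4.61% of all genes), or 3 by DESeq2 (14.3%) and 2 after background subtraction (5.18%). Without the 4 libraries rich in satellite reads, which leaves 3 p53-driven tumors and only M624 and M664, 12 of 40 were called (27.9%). Nup85 was among the calls with upper-quartile scaling, DESeq2, background subtraction and without those 4 libraries, and so was Nup62.

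The direction was less even. The log2 fold change was above 0 for 35 of the 40 genes (87.5%), against 56.2% of all genes tested, and its median was 0.58 against 0.14. A fold change of more than 1.5 toward the Myc-knockin tumors was measured for 20 of the 40 (50%), against 32.7% of all genes, and toward the p53-driven tumors for 2, Ipo8 and Kpna6. Without M624 and M664, 30 of 39 were above 0, and so were 7299 of the 13916 genes tested in both fits. The median was then 0.43, against 0.08 for all genes of that fit. Without the 4 libraries rich in satellite reads, 33 of 40 were above 0, and so were 7584 of the 14956 genes tested in both fits. The median was then 0.57, against -0.0029 for all genes of that fit. With every gene of at least 1 count included, the median of the set was 0.56 while that of all genes was 0.97.

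The 21 nucleoporins and the 19 karyopherins tested did not have the same pattern of values, and the difference was not tested. All 21 nucleoporins had a log2 fold change above 0, with a median of 0.69 and 15 over 1.5-fold. Of all genes tested, 56.2% were above 0 and 32.7% over 1.5-fold higher. Of 11 tested pore proteins not named Nup, 8 were above 0 and 6 over 1.5-fold, so the shared sign holds for the genes chosen by name. Leaving out M624 and M664 turned Nup50 negative. Leaving out the 4 libraries rich in satellite reads turned Nup98, Nup160 and Nup210l negative. Among the karyopherins 14 of 19 were above 0, with a median of 0.30 and 5 over 1.5-fold. Without M624 and M664 their median was 0.09 and 11 of 19 were above 0, while the nucleoporin median was 0.62.

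**Figure D1:**
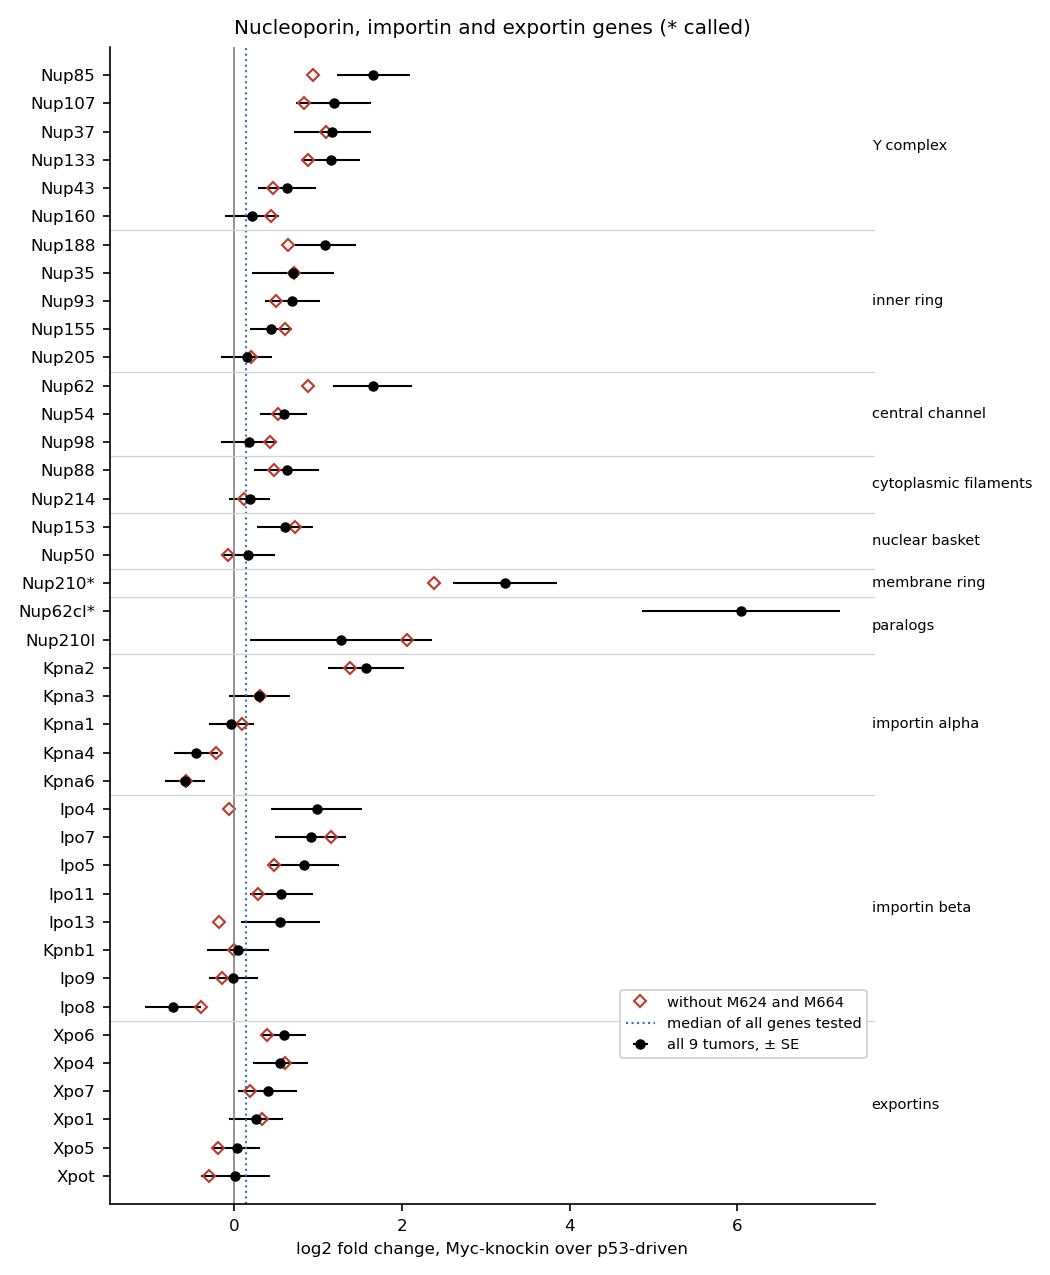
Log2 fold change (Myc-knockin over p53-driven) of the 40 genes tested, by role in the pore, with black points for all 9 tumors ± SE, open diamonds without M624 and M664, and a dotted line at the median of all genes tested (0.14). Nup210 and Nup62cl, marked by asterisks, lie at 3.23 and 6.04, and 35 of the 40 points lie to the right of 0. Nup62cl passed the filter on low counts only through the Myc-knockin tumors.

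The tumors were not alike. Relative to the p53-driven mean of each gene, the median log2 CPM difference over the 40 genes was 0.19 in M351, 0.81 in M408, -0.03 in M9, 1.03 in M624 and 0.24 in M664, and it lay between -0.07 and 0.03 in the p53-driven tumors. The genes higher than in every p53-driven tumor were 16 of 40 in M351 (40%, against 33.2% of all genes tested), 30 in M408 (75% against 28.6%) and 12 in M9 (30% against 34.8%). They were 35 in M624 (87.5% against 37.9%) and 17 in M664 (42.5% against 33.3%). The share in the set was above that of all genes by the widest margin in M624 and M408, and it was below that of all genes in M9, the library with the most satellite reads.

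**Figure D2:**
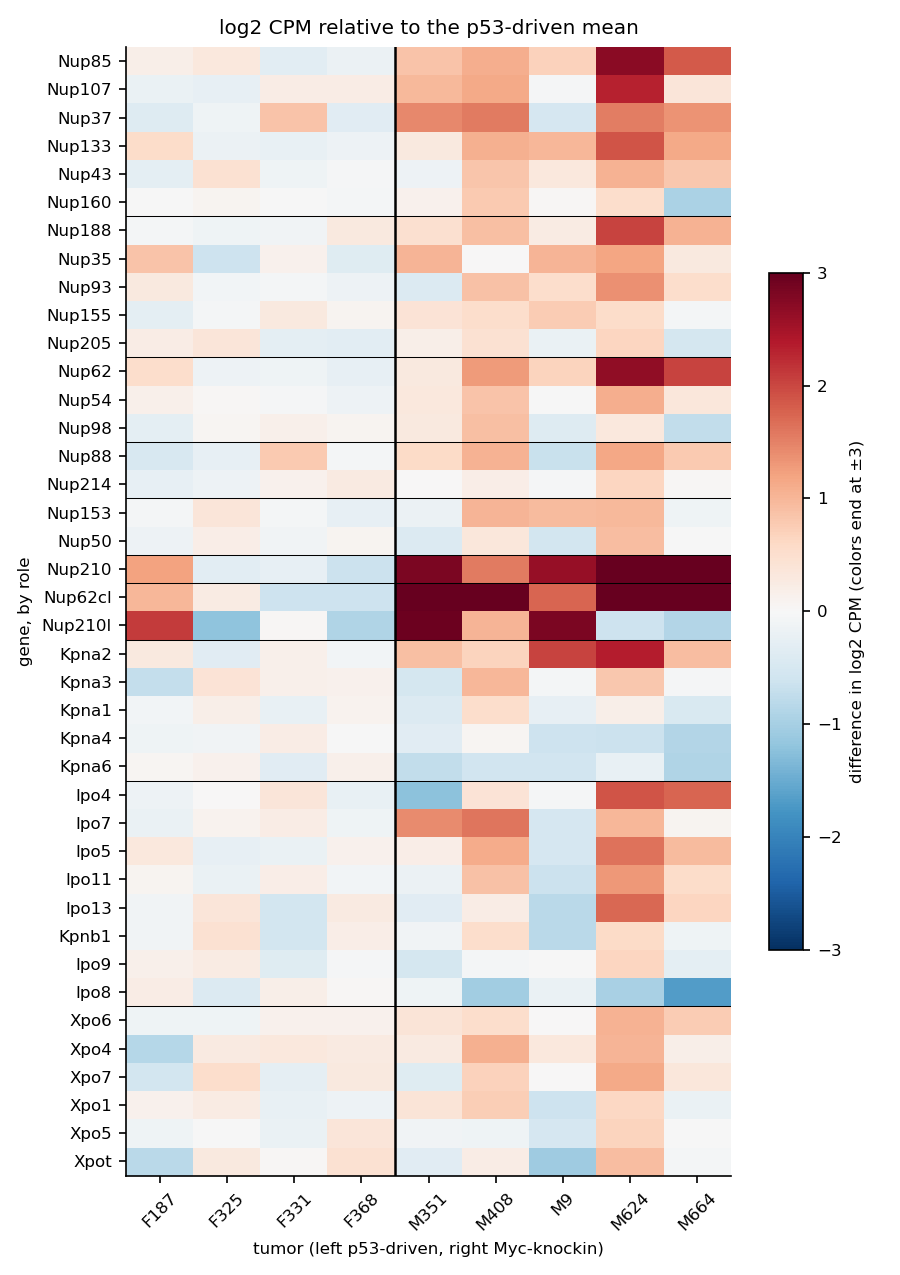
Log2 CPM of the 40 genes in each tumor less the mean of the p53-driven tumors, on a color scale that ends at ±3, with genes by role and a vertical line between the groups. The column of M624 is red for most genes (median 1.03), whereas that of M9 is mixed (median -0.03).

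Promoter sequence was examined for the E-box, since Myc was higher in 1 group. RefSeq promoter windows (build GRCm38.p6, from 250 bases before to 50 after the start site) were found for 32 of the 41 genes, and 6 of those (18.75%) held CACGTG, a palindrome that reads the same on both strands. The motif stood in the windows of 8.09% of all 27025 genes with a window and of 11.5% of the 10875 tested genes with one. A match is a description of the letters and not evidence of binding. The sites upstream of the start are given as the gene strand reads them, with the E-box in capitals and 12 bases on each side. Ipo4 has its E-box 14 bases after the start and is not shown.
Nup188, chr2:30286338-30286367, plus strand, 66 bases before the start: cacgcccaccatCACGTGgcggaagcccac
Nup188, chr2:30286380-30286409, plus strand, 24 bases before the start: gaggatcccagtCACGTGggtacggcgcat
Nup54, chr5:92435282-92435311, minus strand, 100 bases before the start: gacgccccacacCACGTGaaagccacaaac
Ipo7, chr7:110018166-110018195, plus strand, 137 bases before the start: gtgggagccagcCACGTGggccgtgtccgc
Nup93, chr8:94214377-94214406, plus strand, 175 bases before the start: gtcaactccaacCACGTGggcgggagcagg
Xpot, chr10:121626546-121626575, minus strand, 231 bases before the start: agctccagggagCACGTGcgcggtcctcct

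None of these 6 genes was called, and their log2 fold changes ran from 0.01 for Xpot, through 0.59 for Nup54, 0.69 for Nup93, 0.91 for Ipo7 and 0.98 for Ipo4, to 1.08 for Nup188. The called genes, Nup210 and Nup62cl, had no CACGTG in their windows. Windows were not found for Kpna1, Kpna3, Kpna6, Nup35, Nup43, Nup85, Nup210l, Xpo4 and Xpo7.

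Nup210 forms the ring of the pore on the lumenal side of the nuclear membrane. It lies on chromosome 6 (mm10, 91013068 to 91116829, minus strand). Its level was 11.8 CPM in F187, 4.0 in F325, 4.2 in F331 and 3.2 in F368, and 36.9 in M351, 15.4 in M408, 31.9 in M9, 97.8 in M624 and 75.7 in M664. The groups do not overlap, although F187 and M408 lie close to each other. The log2 fold change was 3.23 ± 0.62 SE (adjusted p = 0.0252, edgeR), a 9.38-fold higher level. Genomic background, estimated from the receptor genes and the exon length, would account for 7.4 of the 30 counts in F187, 11.7 of 60 in M351, 1.6 of 84 in M408 and 12.9 of 40 in M9. Without M624 and M664 the gene was still called, with a log2 fold change of 2.38 (adjusted p = 0.0417, edgeR). The call was lost when F325, F331 or F368 was left out (adjusted p = 0.0912 to 0.109, edgeR).

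Nup62cl lies on chromosome X (140006805 to 140062712, minus strand). It had 1, 2, 0 and 0 counts in F187, F325, F331 and F368, and 26, 39, 1, 103 and 157 counts in M351, M408, M9, M624 and M664. On the CPM scale this is at most 0.4 in the p53-driven tumors, and 16.0, 7.1, 0.8, 3.9 and 6.8 in the Myc-knockin tumors. M9, with a single count, lies under the floor of 3 counts, so the gene was detected in 4 of 5 Myc-knockin tumors and in none of the 4 p53-driven tumors. Summed over the tumors, 326 counts stood against 3, a depth-adjusted ratio of 66.2 (95% exact interval 22.5 to 323, counting error only). The log2 fold change was 6.04 ± 1.18 SE (adjusted p = 0.0257, edgeR), but with so few p53-driven counts its size depends on the prior count, and the gene passed the low-count filter only through the Myc-knockin tumors. It was not tested without M624 and M664, where 66 counts stood against 3 (ratio 92.8, interval 30.4 to 461). Leaving out 1 tumor at a time, it could be tested in 5 of 9 fits and was called in 2, without F187 and without M9. The call was lost without F325, F331 or F368, and the gene did not pass the filter without M351, M408, M624 or M664.

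Nup210l, the paralog of Nup210, had between 6 and 24 counts in each library. Its level was 7.1, 0.5, 1.6 and 0.7 CPM in the p53-driven tumors and 12.9, 3.3, 11.95, 0.9 and 0.7 CPM in the Myc-knockin tumors. Its 3 highest values were in M351, M9 and F187, the 3 libraries with the highest receptor background, which would give 6.4 of its 21 counts in M351, 7.0 of 15 in M9 and 4.0 of 18 in F187. The log2 fold change was 1.27 (adjusted p = 0.482, edgeR), or 1.18 after background subtraction and 2.06 without M624 and M664.

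The 6 genes grouped here under the Y complex, the outer scaffold of the pore, had a median of 1.16. This was the highest among the role groups with more than 2 genes. Without M624 and M664 the median was 0.86. Subunits of the complex not named Nup are not in this group. Of these, Sec13 was at 1.23 (-0.999 without M624 and M664), Seh1l at 0.55 and Ahctf1 at 0.44. They were named here after their values were seen. Nup98, whose gene also encodes the Y complex subunit Nup96, is counted with the central channel and was at 0.18. Of the 6 genes of the group, 5 were over 1.5-fold higher, though none was called. Nup85, its largest difference, was at 23.3, 25.6, 16.7 and 18.4 CPM in the p53-driven tumors and at 37.5, 44.3, 33.5, 137.2 and 74.7 CPM in the Myc-knockin tumors. The groups do not overlap, and the log2 fold change of 1.66 ± 0.44 SE stopped just short of the threshold (adjusted p = 0.0509, edgeR), with 0.95 without M624 and M664. The others were Nup107 at 1.18 (0.84 without M624 and M664), Nup37 at 1.17, Nup133 at 1.15, Nup43 at 0.63 and Nup160 at 0.22. Nup160 had 56.7 ± 2.19 CPM in the p53-driven (SD, n = 4) and 65.8 ± 25.9 CPM in the Myc-knockin tumors (SD, n = 5). Its p53-driven tumors lay inside the Myc-knockin range.

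The inner ring had a median of 0.69, and none of its 5 genes was called. The median was 0.61 without M624 and M664 and 1.11 without the 4 libraries rich in satellite reads. Nup188 was at 31.6, 29.9, 30.4 and 40.5 CPM against 46.2, 61.5, 39.0, 133.5 and 68.1 CPM, with M9 just under F368, the highest p53-driven tumor. Its log2 fold change was 1.08 ± 0.36 SE (adjusted p = 0.0913, edgeR), with 0.64 without M624 and M664. Nup35, which ties the inner ring to the membrane, was at 0.70, Nup93 at 0.69, Nup155 at 0.44 and Nup205, the paralog of Nup188, at 0.15.

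In the central channel, Nup62 was at 22.5, 13.8, 14.3 and 13.0 CPM against 19.1, 38.1, 24.7, 98.9 and 63.6 CPM. M351 lay below F187, so the groups overlap (log2 fold change 1.65 ± 0.47 SE, adjusted p = 0.0636, edgeR), and without M624 and M664 the value was 0.88. Its channel partner Nup54 was at 0.59 and Nup98, which also lines the channel, at 0.18. Exons of Nup62 overlap those of Atf5 and Il4i1 by 2.87% and 3.4%, so a few of its reads may belong to them.

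On the cytoplasmic filaments, which hold the machinery for mRNA release, Nup88 was at 21.7, 26.0, 52.8 and 29.4 CPM against 45.5, 63.4, 19.1, 68.7 and 52.7 CPM (log2 fold change 0.63, adjusted p = 0.327, edgeR), and its partner Nup214 was at 0.19. In the nuclear basket, Nup153 was at 80.6, 108.2, 80.3 and 70.9 CPM against 73.9, 169.0, 161.7, 164.0 and 76.4 CPM (log2 fold change 0.60, adjusted p = 0.272, edgeR), and Nup50, which helps release cargo from importin alpha, at 0.16. In both genes the groups overlap, and for Nup153 M351 and M664 sit among the p53-driven tumors.

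**Figure D3:**
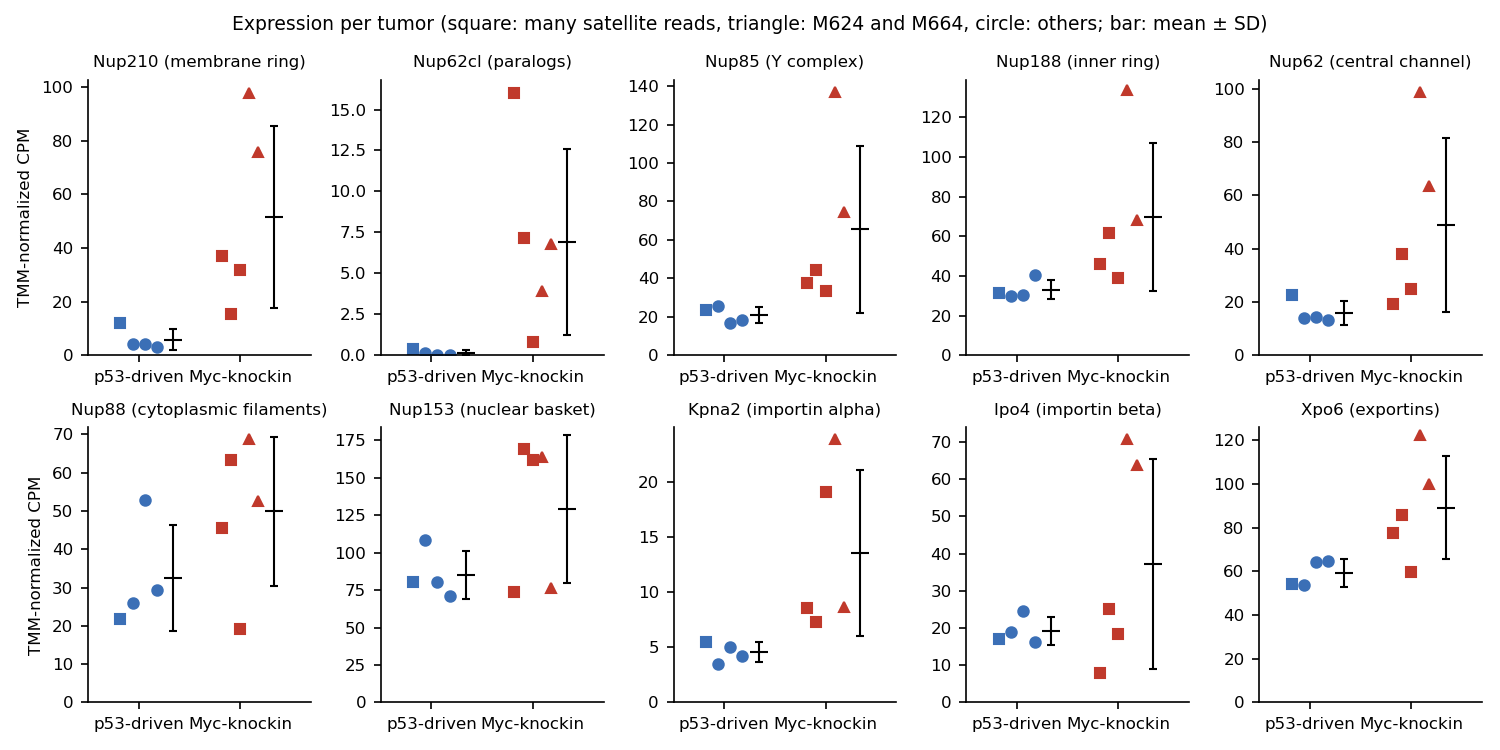
TMM-normalized CPM per tumor of the genes with the largest difference in each role group, p53-driven in blue and Myc-knockin in red, with squares for the 4 libraries rich in satellite reads, triangles for M624 and M664, circles for the others, and mean ± SD beside them (lower bars end at 0). Nup210, Nup85 and Kpna2 show no overlap between the groups, the lowest red Nup62cl point is a single count, and the 2 triangles are the highest Ipo4 values, 70.8 and 63.8 CPM.

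Among the 40 genes the groups did not overlap for Nup210, Nup85 and Kpna2 (3 genes, 7.5%), with the Myc-knockin tumors higher in each. Nup62cl also has no overlap in its values, but its lowest Myc-knockin value and all its p53-driven values are under the floor of 3 counts, so no separation is shown for it. Of all genes tested, with no such floor, 5.41% were apart in that direction and 7.54% in the other, in which none of the 40 was.

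The importin alpha adaptors differed among themselves. Kpna2, the form known for its high level in dividing cells, was at 5.5, 3.5, 5.0 and 4.3 CPM against 8.6, 7.3, 19.1, 24.0 and 8.7 CPM. Its groups do not overlap, and the log2 fold change was 1.57 ± 0.45 SE (adjusted p = 0.0646, edgeR). The gap rests on few counts: F187, the highest p53-driven tumor, and M351 had 14 each. Genomic background would give 2.0 and 3.2 of these, and after its subtraction the Kpna2 log2 fold change was 1.65. Processed copies of Kpna2 exist in the genome and how multimapping reads were counted is not given in the sources used here, so its level is uncertain. Kpna6 was at 107.4, 112.4, 80.6 and 113.7 CPM against 61.6, 69.2, 69.3, 88.5 and 55.1 CPM, with only M624 above F331, the lowest p53-driven tumor (log2 fold change -0.59 ± 0.24 SE, adjusted p = 0.146, edgeR). Kpna4 was at -0.46 (-0.22 without M624 and M664) and Kpna3 at 0.30. Kpna1 was at -0.03, which was above 0 under upper-quartile scaling (0.05) and after background subtraction (0.03). Kpna7, known from oocytes and early embryos, had 7, 0, 1 and 0 counts in the p53-driven and 9, 1, 20, 3 and 0 counts in the Myc-knockin tumors and was not tested.

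Per kilobase of exon, the makeup of importin alpha transcripts can be set side by side. Of the summed CPM per kilobase of the 5 tested genes, Kpna2 made up 2.86% ± 0.82 in the p53-driven (SD, n = 4) and 8.91% ± 4.16 in the Myc-knockin tumors (SD, n = 5), with ranges of 1.96% to 3.87% and 3.59% to 13.7% that overlap through M408. Kpna6 made up 27.2% ± 4.51 and 19.6% ± 2.98. Kpna3 made up 26.5% ± 5.86 and 33.9% ± 6.92, Kpna4 29.6% ± 4.12 and 23.3% ± 5.66, and Kpna1 13.9% ± 1.30 and 14.4% ± 1.03. The Kpna2 share was highest in M9 and M624 and lay below that of F187 in M408.

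**Figure D4:**
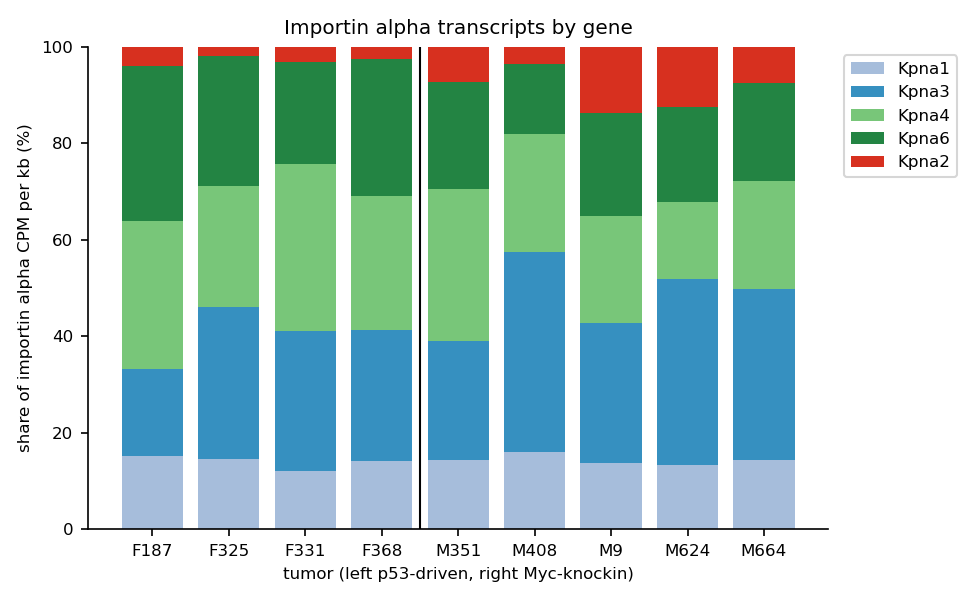
Share of each importin alpha gene in the summed CPM per kilobase of the 5 tested genes, as stacked bars per tumor with the p53-driven tumors to the left of the line. The red Kpna2 segment ranges from 1.96% to 3.87% on the left and from 3.59% to 13.7% on the right.

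The importin beta family had a median of 0.56, with values from -0.73 to 0.98 and no gene called. The median was -0.03 without M624 and M664, with 4 of 8 genes above 0. Ipo4, an importer of histones and ribosomal proteins, was at 17.0, 19.1, 24.5 and 16.2 CPM against 8.0, 25.1, 18.3, 70.8 and 63.8 CPM (log2 fold change 0.98 ± 0.54 SE, adjusted p = 0.271, edgeR). Only M624 and M664 lie well above the p53-driven tumors, and without them the value was -0.06. Same-strand gene Gm49378 shares 55.3% of the exon bases of Ipo4 and had 0 to 1 counts, so Ipo4 may lack reads that fell in the shared part.

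Ipo7 and Ipo5, importers that handle ribosomal proteins among other cargo, were at 0.91 and 0.84. Without M624 and M664 they were at 1.16 and 0.48. Ipo5 had 133 ± 24.5 against 237 ± 122 CPM and Ipo7 140 ± 19.3 against 263 ± 140 CPM (SD, n = 4 and 5). Ipo11 was at 0.56, or 0.28 without M624 and M664. Ipo13, which carries cargo both ways, was at 0.55, or -0.19 without that pair. Kpnb1, the carrier of the classical pathway, was at 0.05, with 372 ± 108 against 385 ± 140 CPM, and Ipo9, an importer of histones, was at -0.01, above 0 under upper-quartile scaling (0.06), DESeq2 (0.00163) and background subtraction (0.07). Ipo8, the paralog of Ipo7, was at 98.4, 62.7, 94.6 and 85.5 CPM against 76.3, 40.7, 73.3, 43.1 and 26.3 CPM. Its log2 fold change of -0.73 ± 0.34 SE was in the direction opposite to that of Ipo7 (adjusted p = 0.192, edgeR). Without M624 and M664 the Ipo8 value was -0.39.

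The exportins had a median of 0.33 and a range of 0.01 to 0.59, the narrowest of the role groups with more than 2 genes, and none was called. Xpo6, the exporter of actin, was at 54.1, 53.6, 64.4 and 64.8 CPM against 77.6, 85.5, 59.8, 122.4 and 100.1 CPM, with M9 inside the p53-driven range (log2 fold change 0.59 ± 0.26 SE, adjusted p = 0.173, edgeR). Xpo4 was at 0.55 and Xpo7 at 0.40, and without M624 and M664 they were at 0.60 and 0.19. Xpo1, the main exporter of proteins with a leucine-rich signal, was at 0.26, while Xpo5, which exports precursors of microRNAs, and Xpot, which exports tRNAs, were at 0.03 and 0.01, both below 0 when every gene with at least 1 count was included (-0.00457 and -0.00807) and without M624 and M664 (-0.19 and -0.30).

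Per kilobase of exon, Kpnb1 had the highest mean level of the set in both groups, at 56.5 CPM per kilobase in the p53-driven and 58.4 in the Myc-knockin tumors. Xpot followed in the p53-driven tumors with 30.4, then Ipo5 with 22.2 and Xpo1 with 20.6. In the Myc-knockin tumors Ipo5 was at 39.6, Xpot at 30.7, Xpo1 at 24.6 and Ipo7 at 23.5. Nup210 went from 0.556 to 4.92 CPM per kilobase, so that it remained below Nup85 and Nup107, both at 19.3 in the Myc-knockin tumors.

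The wider pathway was described with a list of Ran regulators, pore proteins not named Nup, other karyopherins and RNA export factors. Of 33 genes listed, 32 were in the table and 31 were tested. None was called in edgeR, against 5.27% of all genes. DESeq2 called 5 (16.1%, against 17.4% of all genes), and 7 had an unadjusted p under 0.05 (22.6% against 26.8%). The log2 fold change was above 0 for 25, with a median of 0.55. Without M624 and M664 the median was 0.31 with 22 of 30 above 0, and without the 4 libraries rich in satellite reads it was 0.90. The 6 genes of the Ran cycle were above 0, with a median of 1.15, but without M624 and M664 the median was 0.59 and 4 of 5 were above 0, with Ranbp3 at -0.21. Without the 4 libraries Ranbp1 was at -0.36. Rcc1, which loads Ran with GTP, was at 1.62 (adjusted p = 0.0581, edgeR), Ran at 1.27 (adjusted p = 0.0897, edgeR) and Rangap1, which triggers GTP hydrolysis on Ran, at 1.02 (adjusted p = 0.0819, edgeR), and their values without M624 and M664 were 0.83, 0.62 and 0.59. The groups did not overlap for Rangap1 and Nupl2, 2 of the 31 genes (6.45%), against 5.41% of all genes.

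Cse1l, the exporter of importin alpha, was at 0.67 and the importer Tnpo1 at 0.23. Ranbp2 of the cytoplasmic filaments was at -0.67 (-0.16 without M624 and M664) and Tpr of the basket at -0.24 (0.14 without that pair). Sec13, a Y complex subunit named here after its values were seen, was at 883 CPM in M624 and 801 CPM in M664 against 51.6 to 216 CPM in the other tumors, so that its log2 fold change of 1.23 became -0.999 without that pair. Nupl1, which encodes the channel protein Nup58, had 0 to 2 counts in each library. Overlap of its exons with other genes was not examined, so these counts do not show that the gene was silent.

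RNA of cell type markers differed between the groups for some cell types. Summed over 10 osteoblast markers, the level was 61913 to 140373 CPM in the p53-driven and 3404 to 40172 CPM in the Myc-knockin tumors, all 10 genes had a log2 fold change below 0 and 2 were called lower. At most 2 of these markers were at 0 in any tumor. Of all genes tested, 3.0% were called lower, and the marker calls are those of the main fit alone. Of 8 osteoclast markers 6 were called lower, with sums of 2716 to 14151 against 124 to 2570 CPM, and of 10 macrophage markers 6 were below 0 and 3 were called lower, with 723 to 1307 against 256 to 878 CPM. Skeletal muscle markers summed to 14.6 to 4931 against 9.03 to 1895 CPM, endothelial markers to 328 to 454 against 81.0 to 408.4 CPM and red cell markers to 6.14 to 19.8 against 15.9 to 784 CPM. None of these was called, and of the 6 red cell markers only 2 were tested. The part of these cells in the transport genes was not tested, and in whole tumors fewer cells of a type and less RNA per cell cannot be told apart.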

How the data were processed

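RNA was measured in 9 whole tumors. The authors describe capture of polyadenylated RNA with oligo-dT and stranded paired-end libraries, without setting any tumor apart. Whether M624 and M664, with their low Rn7sk, were prepared like the other libraries is not stated. Reads trimmed with Trim Galore were aligned to mm10 by STAR, and featureCounts gave the counts. They deposited raw counts per gene without normalization. Strand setting and the handling of multimapping reads are not given in the sources used here. The table's columns could be assigned to the groups but not to numbered samples: 6 column names appear under their genotype in the study's supporting data, and M351, M9 and M664 were assigned from the letter M. Whether each tumor came from a different animal is not stated, so p-values measure the spread between these tumors. No libraries within a group agreed within sampling noise.

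Counts were tested in R 4.3.3 with edgeR 4.0.16 (glmQLFit, glmQLFTest) after TMM normalization and filterByExpr (minimum count 10), with Benjamini-Hochberg adjustment over 15365 genes. CPM values are TMM-normalized, log2 CPM used a prior count of 2, and levels per kilobase used the union of GENCODE exons. The script was tested on simulated data. Exons of 13 of the 41 genes overlap another gene, 1 of them by more than 10%. Alternatives were upper-quartile and library-size scaling, DESeq2 1.42.0, all genes with at least 1 count, subtraction of genomic background, and leaving out tumors. DESeq2 and background subtraction without M624 and M664 were added after seeing the data. Intervals and the floor of 3 counts cover counting error only.

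The genes and lists were chosen with earlier results of these data known. Every gene of the set is named. Values per tumor are given for called genes and for the largest difference in each role group, and also for Nup210l, Kpna6 and Ipo8, chosen after their values were seen.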

Additional observations from a re-analysis of the deposited data

Results flagged for a closer look

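Of 98 groups of 4 or 5 tumors examined (each named gene in each model), 6 held a tumor whose gap to the nearest other exceeded Dixon's 95% critical value, and chance gives about 1 in 20. F187 held 3 of them: Nup133 and Nup62 were highest there, at 4.82 and 4.51 on the log2 CPM scale (28.0 CPM against 16.1 to 17.0, and 22.5 CPM against 13.0 to 14.3 in the other p53-driven tumors), and Xpo4 was lowest, at 4.90 (29.6 CPM against 64.4 to 66.1). Kpna6 was lowest in F331, at 6.34 (80.6 CPM against 107 to 114). Ran was highest in F325, at 6.68 (102 CPM against 56.7 to 61.2). Nup37 was lowest in M9, at 2.06 (3.98 CPM against 14.9 to 17.4 in the other Myc-knockin tumors). F187 and M9 are among the libraries rich in satellite reads, whose part in these values was not tested.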

How the results depend on the processing

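No paired analysis was possible because the columns carry no replicate numbers. Over 16 alternatives, 29 of the 40 genes had the sign of their log2 fold change in every fit that tested them (11 fits for Nup62cl) and 11 did not. The number of genes called in the set (2) was 5 with upper-quartile scaling, 1 with library-size scaling, 8 with DESeq2, 4 after background subtraction, 1 without M624 and M664, and 12 without F187, M351, M408 and M9 (11 higher, and Ipo8 lower), where 27.9% of all genes were called. Leaving out 1 tumor gave 0 to 6. It was 0 without F325, F331 or F368, where at most 0.0498% of all genes were called. It was 6 without M9, where 10.4% of all genes were called. With M624 and M664 left out, DESeq2 called 3 and background subtraction 2. Genes called in all (809) were 136 with library-size scaling, 2670 with DESeq2, 494 with every gene of at least 1 count and 4595 without the 4 libraries, and 5 to 1588 leaving out 1 tumor. Calls higher in Myc-knockin tumors were 43.0% of all calls, and 64.5% with upper-quartile scaling, 58.0% with DESeq2 and 54.6% after background subtraction. The median of all genes was 0.14, or 0.03 with library-size scaling. Of the wider pathway (0 called), 2 were called with upper-quartile scaling (6.45%, against 6.32% of all genes), 5 with DESeq2 (16.1% against 17.4%), 3 after background subtraction (9.68% against 7.86%), 13 without the 4 libraries (41.9% against 27.9%) and 0 to 2 leaving out 1 tumor. Nup210 missed the threshold with library-size scaling (adjusted p = 0.0550, edgeR). The causes were not tested.

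Without M624 and M664 the sign changed for Ipo13 (-0.19), Ipo4 (-0.0631), Kpna1 (0.0910), Nup50 (-0.0717), Xpo5 (-0.19), Xpot (-0.30), Tpr (0.14), Sec13 (-0.999), Ranbp3 (-0.21) and Nxt1 (-0.12). Without the 4 libraries it changed for Ipo9 (0.29), Nup160 (-0.0241), Nup210l (-0.19), Nup98 (-0.20), Ranbp1 (-0.36), Gle1 (0.25) and Nxf1 (0.28). It changed for Ipo9 with upper-quartile scaling (0.0555), DESeq2 (0.00163) and background subtraction (0.0696), for Kpna1 with upper-quartile scaling (0.0462) and background subtraction (0.0309), and for Xpo5 (-0.00457) and Xpot (-0.00807) with every gene of at least 1 count. Leaving out 1 tumor, the range was -0.16 to 0.10 for Ipo9, -0.19 to 0.0765 for Kpna1, -0.10 to 0.22 for Kpnb1, -0.0462 to 0.29 for Nup50, -0.0442 to 0.37 for Nup98, -0.12 to 0.14 for Xpo5, -0.24 to 0.20 for Xpot and -0.0326 to 0.41 for Tnpo1.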
